A study of Mus musculus with 6 samples.

Results

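These data describe how the transcriptional response to stimulation of the T cell receptor (TCR) differed between Th2 cells after a single culture cycle and Th2 cells after repeated cycles. For each gene, the log2 ratio of stimulated to unstimulated cells (the response) was taken in each culture, and the response of Th2-1st cells was subtracted from that of Th2-4th cells. A positive response difference therefore marks a gene that was induced more, or repressed less, in Th2-4th cells. Of 18194 genes with a probe set naming them alone, 10429 were described, namely those whose higher signal of each unstimulated and stimulated pair exceeded the median of its array. The 4 arrays of control siRNA cells, out of 6, gave the response difference, with 1 array per condition.
The cells were splenic CD4 T cells of C57BL/6 mice (6 to 8 weeks of age). Th2-1st cells had been activated through the TCR and CD28 and grown for 5 days in medium holding IL-4 at 100 U/ml beside IL-2 at 25 U/ml. Th2-4th cells started with 5 days under the same Th2 conditions. They were then kept for 2 days with no added cytokine and restimulated for 5 days with anti-TCR mAb, IL-2 and anti-IL-4 mAb. This was done in repeated cycles over about 4 weeks. For the restimulation, the paper names no anti-CD28 mAb. The cultures thus differ in age, in the number of earlier stimulations, in the blocking of IL-4 and, as described, in CD28 costimulation at the last activation. These cannot be told apart. All cells had been transfected by nucleofection with siRNA, here a negative control siRNA, and 24 h later were either left unstimulated or stimulated for 4 h with immobilized anti-TCR mAb. The 2 remaining arrays held stimulated cells of both cultures with GATA3 siRNA. The labels do not say how many animals or cultures each array stands for, or whether both stages came from the same animals or starting culture. A difference of animals or starting cultures can thus not be told apart from stage either.
Binding of the TCR starts calcium, MAP kinase and NF-kappa B signalling, which within minutes to hours switches on immediate early transcription factors, then cytokines, chemokines and surface receptors, and lowers genes that keep T cells quiescent. Activated T cells also raise Myc, ribosome production and nutrient uptake before they divide. Effector Th2 cells are known for a fast recall of IL-4, IL-5 and IL-13, a group of cytokine genes governed by GATA3.
Signals are linear array intensities on a common scale and are given below for unstimulated and then anti-TCR stimulated control siRNA cells of each culture. The median signal of the 6 arrays lay between 61.8 and 74.2. The T cell markers Cd3e, Cd3g, Cd4 and Cd5 were all above the filter, and their summed signal ran from 15399 to 35952. Of the B cell markers, Cd79a, Ms4a1 and Pax5 were measured and none passed the filter, with sums from 75.9 to 86.6. The 5 myeloid markers summed to 258 to 326, and those of CD8 T and NK cells to 251 to 485. Markers of mast cells and basophils summed to 601 before and 304 after anti-TCR in Th2-1st and 800 before and 1222 after it in Th2-4th. Mcpt8, a basophil protease gene, read 3.0 and 7.6 in Th2-1st and 183 and 873 in Th2-4th cells. Cpa3 was nearly level between the cultures, at 562 and 255 in Th2-1st and 582 and 320 in Th2-4th cells. Fcer1a and Kit lay below the array median on each control array. The part of such cells in the results below was not tested. In these bulk samples, fewer cells of a type and less RNA per cell cannot be told apart.
With single arrays there is no replicate check and no p-value. As a description of error, the robust SD of the response difference among genes of like signal was 1.60 in the dimmest and 0.43 in the brightest of 20 bins of genes by signal, which includes real differences. In 5000 genes with another probe set above the filter, the response differences of both probe sets lay a median of 0.41 log2 apart, and 5% lay more than 1.64 apart. A response difference past 2-fold (over 1 or under -1 on the log2 scale) is used below as the threshold for naming genes and is not a significance level.
Both cultures responded broadly alike. In Th2-1st cells, 1012 genes (9.70%) were induced past 2-fold and 1724 (16.5%) were repressed, and in Th2-4th cells 1407 (13.5%) were induced and 2203 (21.1%) repressed. Induction past 2-fold in both cultures was seen for 771 genes, which are 76.2% of those induced in Th2-1st and 54.8% of those induced in Th2-4th cells. For repression the shared 1272 genes are 73.8% and 57.7%. Across the 10429 genes, which are not independent replicates, the responses correlated with a Pearson r of 0.83 and a Spearman rho of 0.79, and these pairs of responses share no array. The responses of Th2-4th cells were spread more widely, with a robust SD of 0.98 log2 against 0.82 in Th2-1st cells.
The response difference was past 2-fold for 1428 genes. It was higher in Th2-4th cells for 748 genes (7.17% of those measured) and higher in Th2-1st cells for 680 (6.52%), and it was past 4-fold for 129 and 111 of these. After signals below the array median were raised to that median, 1005 of the 1428 were still past 2-fold in the same direction. Just inside the threshold stood Pemt and Cplane2, both at 1.003, and Cfap36 at -1.001, while Noc2l and Carmil1, both at 0.999, lay just outside, as did 1700007K13Rik and Cldn15 on the other side. Of the 458 such genes with another probe set above the filter, the next probe set had the same sign for 381, was past 2-fold in the same direction for 175, and past 2-fold in the other direction for 26.
The genes were sorted into classes by the response in each culture. Only means past 2-fold in a single culture with a log2 response within 0.5 of 0 in the other, and more means past 0.5 in the same direction in both. Under this sorting, 143 genes were induced only in Th2-4th and 61 only in Th2-1st cells, 163 were repressed only in Th2-4th and 109 only in Th2-1st cells. A further 246 were induced more in Th2-4th and 97 more in Th2-1st cells, 214 were repressed more in Th2-4th and 82 more in Th2-1st cells. The responses of 22 genes were past 2-fold in opposite directions, and 291 fell between the classes. The plot of responses shows these classes as bands on both sides of the diagonal.

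**Figure D1:**
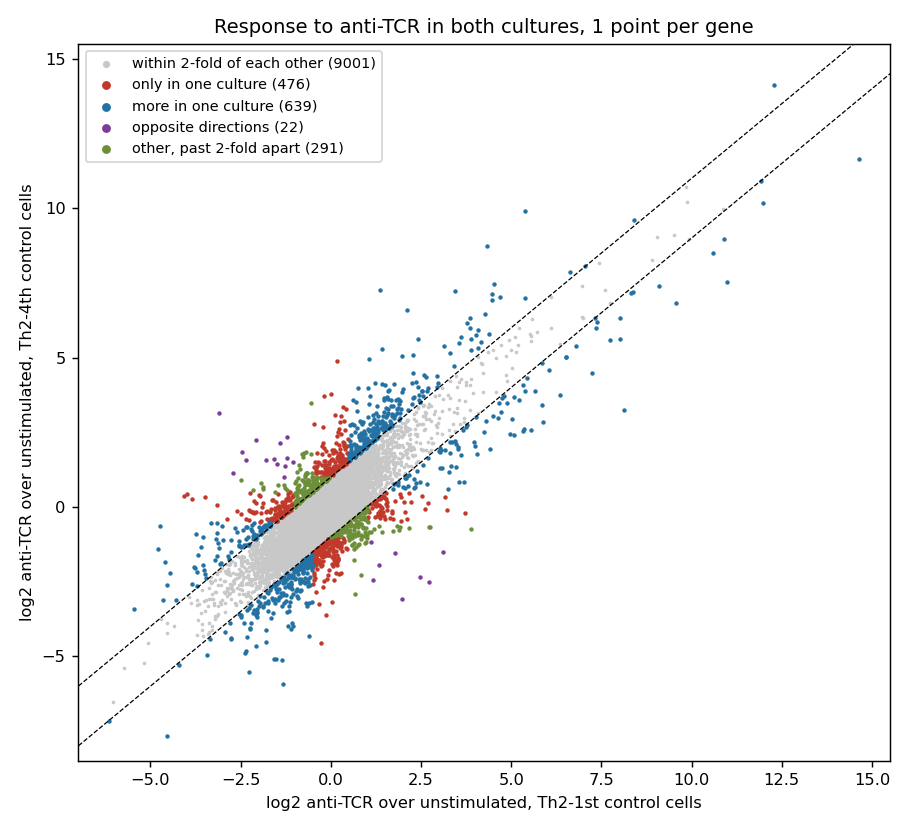
Log2 ratio of anti-TCR to unstimulated control siRNA cells in Th2-4th (vertical axis) against Th2-1st cells (horizontal axis), 1 point per gene for 10429 genes, coloured by class. Dashed lines mark a response difference of 2-fold, and most genes lie between them, with genes induced in both cultures reaching log2 responses above 10 on both axes.

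The response difference of a gene equals its log2 Th2-4th over Th2-1st ratio after stimulation minus the same ratio before stimulation. The 2 ratios are therefore given side by side. Among the 748 genes with the higher response in Th2-4th cells, the cultures differed past 2-fold in that direction only before stimulation for 265 genes, which were lower in unstimulated Th2-4th cells, and only after stimulation for 263, which were higher in stimulated Th2-4th cells. Both held for 21 genes and neither for 199. Among the 680 genes with the higher response in Th2-1st cells, 303 were set apart only before stimulation, 187 only after, 10 in both and 180 in neither. Over all genes measured, unstimulated cells were past 2-fold higher in Th2-4th for 10.1% and lower for 8.44%, and stimulated cells higher for 9.21% and lower for 6.98%. As the genes were chosen by the difference of these ratios, larger shares among them follow largely from that choice. With 1 array per state, an error of an array cannot be told apart from a difference in that state. Unstimulated signals were below the array median in Th2-4th cells for 198 of the 748 and in Th2-1st cells for 156 of the 680.
The stimulated GATA3 siRNA arrays, which did not enter the response difference, give a further reading of the stimulated ratio, although the knockdown keeps them from being replicates. They cannot speak to the unstimulated cells. Of the 284 genes with the higher response in Th2-4th whose stimulated ratio was past 2-fold, 231 had the same sign on those arrays and 112 (39.4%) were past 2-fold the same way, against 8.22% of all genes, while 12 were past 2-fold the other way. For the 197 genes on the other side, 151 had the same sign and 79 (40.1%) were past 2-fold, against 6.55% of all genes, with 9 the other way. Both sets were chosen by a stimulated control ratio past 2-fold, so a larger share than among all genes follows largely from that choice. It is no test of the response difference.

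**Figure D2:**
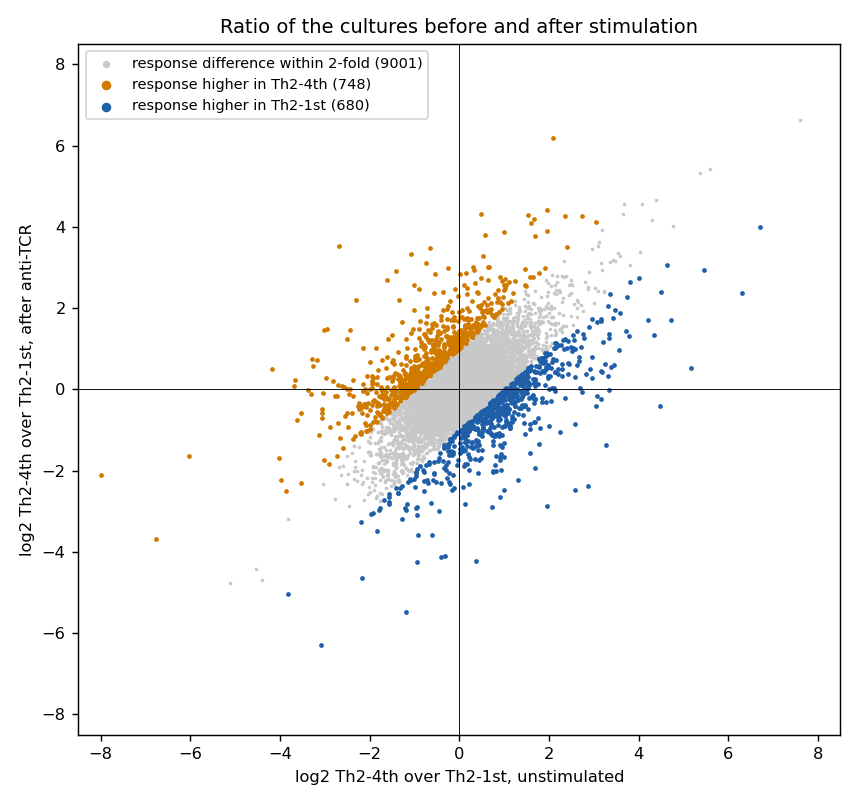
Log2 Th2-4th over Th2-1st ratio after anti-TCR (vertical axis) against the ratio before stimulation (horizontal axis) for 10429 genes on the control siRNA arrays. Orange points (748 genes) lie above the grey band and blue points (680) below it by construction, and both sets spread along the horizontal as well as the vertical axis.

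Genes of ribosome biogenesis, which assemble ribosomal subunits in the nucleolus, were induced from a lower level in Th2-4th cells. All 26 measured members passed the filter, and 15 had a response difference past 2-fold toward Th2-4th cells and 0 toward Th2-1st cells, where 7.17% and 6.52% of all genes were past it. Their median response difference was 1.17 log2, against -0.03 over all genes, and 24 of 26 had the higher response in Th2-4th cells. The median response was 1.19 log2 in Th2-1st against 2.54 in Th2-4th cells, with 18 and 22 members induced past 2-fold and none repressed past it in either culture.
The cultures differed in these genes mainly before stimulation. In unstimulated cells 25 of 26 read lower in Th2-4th than in Th2-1st, 17 of them past 2-fold, with a median log2 ratio of -1.26. After stimulation the median ratio was -0.28 and all 26 lay within 2-fold, and on the GATA3 siRNA arrays it was -0.56. Grwd1, a ribosome assembly factor, read 819.7 before and 3251 after anti-TCR in Th2-1st and 197 before and 3044 after it in Th2-4th cells. It was therefore 4.15 times lower in unstimulated Th2-4th cells and nearly level after stimulation, and its other probe sets gave response differences of 1.40 and 2.36. Nolc1, a nucleolar phosphoprotein, read 2292 before and 8606 after anti-TCR in Th2-1st and 612 before and 7162 after it in Th2-4th cells, a response difference of 1.64 against a spread of 0.47 among genes of its signal. Nop16 and Rrp12, needed for maturation of the large and small subunits, had response differences of 1.74 (0.98 by its other probe set) and 1.69. At the other end Npm1 (nucleophosmin) at -0.25 and Polr1a, the largest subunit of RNA polymerase I, at -0.04 had slightly higher responses in Th2-1st cells.
Myc, the transcription factor that drives ribosome production and growth, read 1841 in unstimulated Th2-1st cells, 4939 after stimulation, 299 in unstimulated Th2-4th cells and 5218 after stimulation. The unstimulated Th2-4th array was the low one, and both stimulated arrays were alike. Its response was 2.68-fold in Th2-1st against 17.4-fold in Th2-4th cells, a response difference of 2.70 (spread 0.47). On the GATA3 siRNA arrays, Myc read 7371 in Th2-1st against 3955 in Th2-4th cells. The amino acid transporter genes Slc7a5 and Slc7a1 were also lowest in unstimulated Th2-4th cells. Slc7a5 read 1703 before and 4713 after anti-TCR in Th2-1st and 397 before and 4775 after it in Th2-4th cells, and Slc7a1 read 3067 before and 5521 after anti-TCR in Th2-1st and 859 before and 3163 after it in Th2-4th cells. The response difference of Slc7a1 was 1.03, and 0.64 by its other probe set. Of the 19 genes of ATF4 and amino acid supply, 3 were past 2-fold toward Th2-4th cells, with the stress regulator Nupr1 at 2.12, and 0 toward Th2-1st cells, and the median of 0.19 was close to that of all genes.

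**Figure D3:**
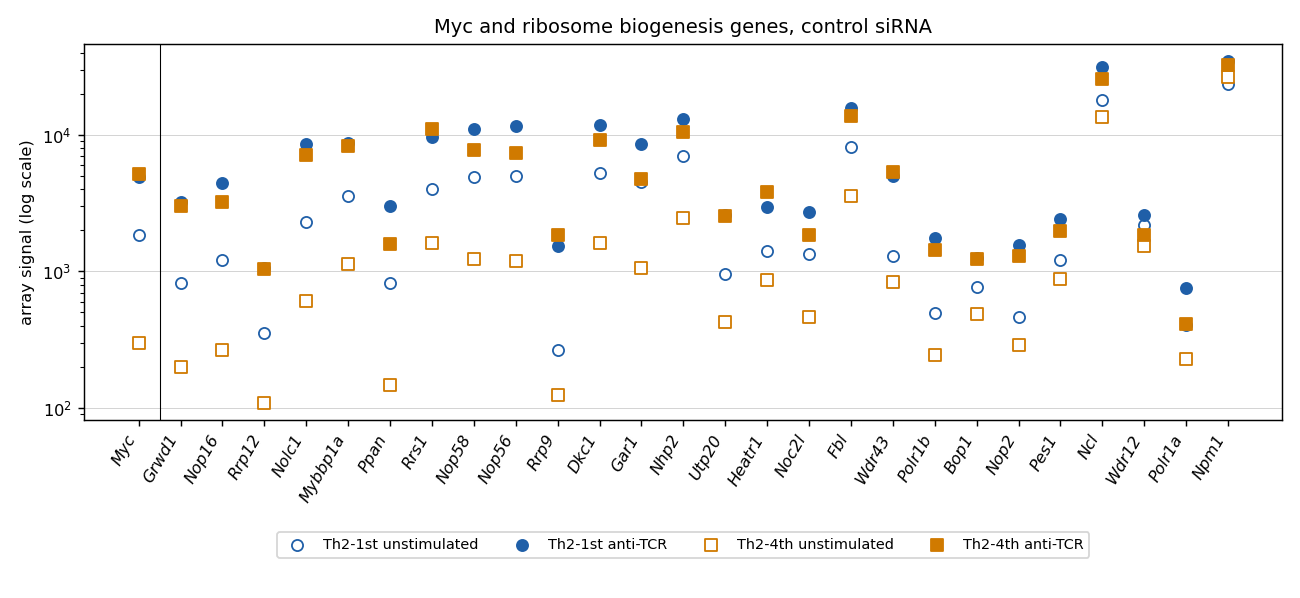
Array signal (vertical axis, log scale) of Myc and the 26 ribosome biogenesis genes, ordered by response difference from left to right, on the 4 control siRNA arrays. Open symbols are unstimulated and filled symbols anti-TCR stimulated cells. The open squares (unstimulated Th2-4th) are the lowest symbols of 25 of the 26 genes, Npm1 being the exception, while the filled symbols of both cultures overlap.

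Cell cycle and DNA replication genes did not follow this pattern. Of 33 genes, 2 were past 2-fold toward Th2-4th and 1 toward Th2-1st cells, with a median response difference of -0.15. They read lower in Th2-4th cells both before stimulation (29 of 33, median log2 ratio -1.26) and after it (27 of 33, median -1.31), and the GATA3 siRNA arrays gave a median of -1.27. Mcm2, a subunit of the replicative helicase, read 3635 before and 2353 after anti-TCR in Th2-1st and 602 before and 868 after it in Th2-4th cells and had a response difference of 1.16, but 0.13 by its other probe set. Cdkn1b, the cell cycle inhibitor p27, read 3004 before and 513 after anti-TCR in Th2-1st and 7550.2 before and 632 after it in Th2-4th cells. It was high in both unstimulated cultures and low in both after stimulation.
Genes induced only in Th2-4th cells were led by Ikzf3, which encodes the lymphoid transcription factor Aiolos. Ikzf3 read 1056 before and 1139 after anti-TCR in Th2-1st and 128 before and 1070.3 after it in Th2-4th cells. It was low only in unstimulated Th2-4th cells, and the other arrays were level, so that stimulation brought Th2-4th cells to the level Th2-1st cells already had. Its response difference was 2.96, and 1.19 by its other probe set. Cdca7, a chromatin-associated protein of dividing cells, read 2363 before and 2036 after anti-TCR in Th2-1st and 280.3 before and 1247 after it in Th2-4th cells and was also lowest in unstimulated Th2-4th cells, with a response difference of 2.37 that was 0.82 for the mean over its probe sets.
A different order was seen in Pdpn and Mid1. Pdpn (podoplanin, a surface sialoglycoprotein) read 61.4 before and 74.6 after anti-TCR in Th2-1st and 179 before and 1466 after it in Th2-4th cells. Mid1, a microtubule-associated ubiquitin ligase, read 73.5 before and 63.7 after anti-TCR in Th2-1st and 147 before and 939 after it in Th2-4th cells. The response difference of Mid1 was 2.88, and 1.21 by its other probe set. In both genes Th2-1st cells stayed near the array median with or without stimulation, and stimulated Th2-4th cells stood far above all other control arrays. The GATA3 siRNA arrays had the same order, with Pdpn at 36.4 and 1248 and Mid1 at 68.2 and 797 in stimulated Th2-1st and Th2-4th cells. Ndnf, a secreted factor, read 78.9 before and 102 after anti-TCR in Th2-1st and 239 before and 1740.2 after it in Th2-4th cells, and it too was high in stimulated Th2-4th cells. Pcyt1a, the rate-limiting enzyme of phosphatidylcholine synthesis, read 311 before and 359 after anti-TCR in Th2-1st and 352 before and 2024 after it in Th2-4th cells, and its other 3 probe sets gave response differences of 2.45 to 3.02. Over the 143 genes of this class, 129 were lower in Th2-4th before stimulation and 33 were past 2-fold higher in Th2-4th after it. Over all 10429 genes, these were 4731 and 960. Choosing genes by the response difference favours both, so these counts are no separate result. In unstimulated Th2-4th cells, 61 of the 143 read below the array median.

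**Figure D4:**
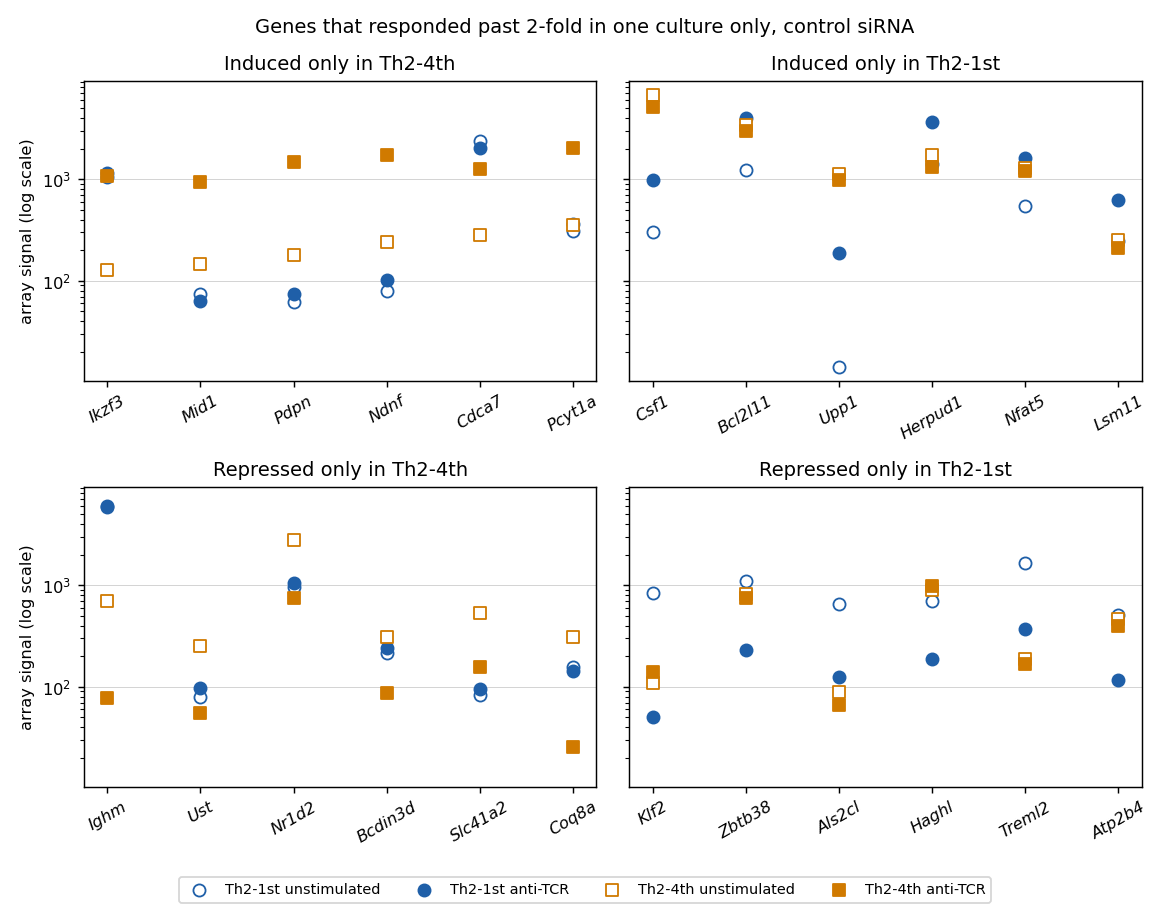
Array signal (vertical axis, log scale) of the 6 leading genes in each class that responded past 2-fold in a single culture, on the 4 control siRNA arrays (circles Th2-1st, squares Th2-4th, open unstimulated, filled anti-TCR). In each panel both symbols of the culture that did not respond lie close together.

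Among genes induced more in Th2-4th cells, Tnf had the largest named difference. Tnf read 90.3 before and 3803 after anti-TCR in Th2-1st and 18.2 before and 17525 after it in Th2-4th cells. Both unstimulated arrays were low and stimulated Th2-4th cells were 4.61 times above stimulated Th2-1st cells, with GATA3 siRNA values of 13831 and 25586. Since 18.2 is below the array median, the response difference of 4.52 became 2.49 when low signals were raised. Rgcc, a regulator of the cell cycle, read 5651 before and 13321 after anti-TCR in Th2-1st and 1546 before and 27178 after it in Th2-4th cells, and its response difference was 2.90 by this and 3.05 by the other probe set. Nrp2, a semaphorin and VEGF co-receptor, read 75.2 before and 127 after anti-TCR in Th2-1st and 63.5 before and 1006 after it in Th2-4th cells, and its response difference was 3.23, and 0.76 to 3.06 by its other probe sets. Sphk1, which makes sphingosine 1-phosphate, read 18.8 before and 318 after anti-TCR in Th2-1st and 35.4 before and 2150.1 after it in Th2-4th cells. Nrp2 and Sphk1 were high in stimulated Th2-4th cells and much lower on the other control arrays.
Feedback inhibitors of TCR and cytokine signalling were among the genes with a higher response in Th2-4th cells. Of 13 genes of MAP kinase feedback, 3 were past 2-fold toward Th2-4th cells and 1 toward Th2-1st, with a median of 0.54. Spry1, an inhibitor of Ras signalling, read 118 before and 2714 after anti-TCR in Th2-1st and 48.7 before and 8641 after it in Th2-4th cells. Dusp4, a MAP kinase phosphatase, read 199 before and 4415 after anti-TCR in Th2-1st and 50.2 before and 7016 after it in Th2-4th cells. Both were lower before and higher after stimulation in Th2-4th than in Th2-1st cells, with response differences of 2.94 and 2.66. Their unstimulated Th2-4th signals were below the array median, and the differences were 2.34 and 2.095 with low signals raised. With GATA3 siRNA, stimulated Th2-1st and Th2-4th cells read 4443 and 8783 for Spry1 and 6376 and 7716 for Dusp4. Spred2, a further inhibitor of Ras signalling, was at 1.74, and the phosphatase gene Dusp16 at -1.23, with a signal 3.42 times higher in unstimulated Th2-4th cells. The other probe sets gave 0.80 or more for Spred2 and -0.91 for Dusp16.
Of 11 SOCS and PIM genes, 4 were past 2-fold toward Th2-4th cells and 0 toward Th2-1st. Socs3, which blocks cytokine receptor signalling, read 758 before and 2267 after anti-TCR in Th2-1st and 449 before and 5534 after it in Th2-4th cells, and its other probe sets gave 1.67 and 2.37. Socs1 was at 1.32, and the kinase genes Pim2 and Pim3 were at 1.19 and 1.18, the latter 0.18 and 3.83 by its other probe sets. Of 21 cytokine receptor genes, 6 were past 2-fold toward Th2-4th and 0 toward Th2-1st cells. Il2rb, the beta chain of the IL-2 receptor, read 1036 before and 1354 after anti-TCR in Th2-1st and 595 before and 3506 after it in Th2-4th cells. It was induced past 2-fold only in Th2-4th cells, from a lower unstimulated level. Il10ra, the IL-10 receptor chain, read 203 before and 262 after anti-TCR in Th2-1st and 168 before and 735 after it in Th2-4th cells, and Il21r and Il6st, the latter the shared gp130 chain, both had response differences of 1.52, with 0.97 for the other probe set of Il6st. Il2ra, the high-affinity IL-2 receptor chain, read 4722 before and 6442 after anti-TCR in Th2-1st and 2391 before and 8445 after it in Th2-4th cells, a response difference of 1.37.
Fewer genes were induced only in Th2-1st cells. Csf1, the macrophage growth factor, read 299 before and 980.4 after anti-TCR in Th2-1st and 6789 before and 5122 after it in Th2-4th cells. Th2-4th cells held it at a high level before stimulation and did not raise it further, while Th2-1st cells raised it 3.28-fold from a low level. Its other probe sets gave response differences of -1.98 to 0.45. Bcl2l11, which encodes the death-promoting protein Bim, read 1238 before and 4006 after anti-TCR in Th2-1st and 3436 before and 3008 after it in Th2-4th cells, and Upp1, uridine phosphorylase, read 14.1 before and 188 after anti-TCR in Th2-1st and 1118 before and 974 after it in Th2-4th cells. In both, unstimulated Th2-1st cells were low and the Th2-4th arrays stood close together. The other 4 probe sets of Bcl2l11 gave -2.74 to 0.00. Upp1 was below the array median in unstimulated Th2-1st cells, and its response difference was -3.93 as deposited and -1.79 with low signals raised.
Herpud1 and Lsm11 were set apart after stimulation instead. Herpud1, a gene of endoplasmic reticulum quality control, read 1404 before and 3629 after anti-TCR in Th2-1st and 1719.7 before and 1329 after it in Th2-4th cells. Lsm11, needed for histone mRNA processing, read 247 before and 622 after anti-TCR in Th2-1st and 249 before and 211 after it in Th2-4th cells. Unstimulated cells of both cultures were alike in these genes and stimulated Th2-1st cells were the high ones, as they were with GATA3 siRNA (3453 and 1482 for Herpud1, 431 and 186 for Lsm11). Nfat5, a transcription factor of the NFAT family that responds to osmotic stress, read 541 before and 1607 after anti-TCR in Th2-1st and 1283 before and 1203 after it in Th2-4th cells, and its other probe sets gave -0.68 and -0.54.
Genes induced more in Th2-1st cells included surface ligands, a protease and chemokines. Cd200, a ligand that restrains myeloid cells, read 80.8 before and 3005 after anti-TCR in Th2-1st and 35.8 before and 428 after it in Th2-4th cells. Stimulated Th2-1st cells were 7.02 times above stimulated Th2-4th cells, and with GATA3 siRNA they read 5202 and 955. Mmp10, a matrix metalloproteinase (stromelysin-2), read 54.8 before and 1845 after anti-TCR in Th2-1st and 29.0 before and 154 after it in Th2-4th cells, and Cxcl3, a neutrophil chemokine, read 13.9 before and 2964 after anti-TCR in Th2-1st and 8.92 before and 429 after it in Th2-4th cells. In both, unstimulated cells were below the array median in each culture and stimulated Th2-1st cells were by far the highest of the control arrays. With GATA3 siRNA, stimulated Th2-1st and Th2-4th cells read 320 and 78.5 for Mmp10 and 335 and 192 for Cxcl3. Stimulated Th2-1st cells were thus 6.91 times higher in Cxcl3 on the control arrays but 1.74 times with GATA3 siRNA. By quantitative PCR, the paper reported higher Cxcl3 expression after repeated culture cycles than in effector cells, the opposite order. Why the orders differ was not tested. Cth, which makes cysteine from cystathionine, read 7.93 before and 2629.7 after anti-TCR in Th2-1st and 2.29 before and 336 after it in Th2-4th cells, and Plagl1, a zinc finger gene, read 81.8 before and 648 after anti-TCR in Th2-1st and 21.0 before and 77.2 after it in Th2-4th cells.
Havcr2 and Fasl differed from these. Havcr2, which encodes the inhibitory receptor TIM-3, read 59.6 before and 4844 after anti-TCR in Th2-1st and 703 before and 9464 after it in Th2-4th cells. Fasl, the ligand of the death receptor Fas, read 118 before and 3684 after anti-TCR in Th2-1st and 2194 before and 11978 after it in Th2-4th cells, and its other probe set gave -1.95. In both genes Th2-4th cells were higher before as well as after stimulation, with unstimulated signals 11.8 and 18.6 times higher. Ccl1, a Th2 cell chemokine, likewise read 50.7 before and 38354 after anti-TCR in Th2-1st and 457 before and 51302 after it in Th2-4th cells, a response difference of -2.75.
Promoters were compared by short motifs of factors that act downstream of the TCR. Windows of 250 bases upstream of RefSeq transcript starts (mouse build GRCm38.p6) were searched on both strands for TGANTCA (AP-1), GGAAAA (NFAT), GGGA and CC set 4 bases apart (NF-kappa B), TTC and GAA set 4 bases apart (STAT), TGACGTCA (CRE) and GCGNGGGCG (EGR), and, chosen after the data were seen, CACGTG (E-box, which Myc can bind). NFAT and NF-kappa B letters can overlap. Of 10429 genes, 8527 had a promoter in the table. A gene can have several windows, which can overlap, and shares are of windows and not of genes. Membership of the class induced more in Th2-1st cells rests in part on low signals. Of its 97 genes, 61 read below the array median in unstimulated Th2-1st cells, and 55 stayed past 2-fold with low signals raised. Of the genes induced more in Th2-1st cells, 73 had 98 promoters, and AP-1 letters were in 18 of the 98 (18.4%). This compares with 6.7% of all 32851 promoters and 4.5% of those of the genes measured. The share was 4.7% for genes induced more in Th2-4th and 4.9% for genes induced only in Th2-1st cells. Among genes with a log2 response over 3 in both cultures and a difference within 2-fold, it was 18.2% (10 of 55). NFAT letters were in 28.6% of the promoters of genes induced more in Th2-1st cells and 27.9% of those induced only in Th2-1st, against 20.4% of all promoters and 18.2% of those of the genes measured. For the genes with a log2 response over 3 in both cultures and a difference within 2-fold, the NFAT share was 16.4% (9 of 55).
The following windows are shown for 4 genes with a stronger induction in Th2-1st cells, for Tnf, with a stronger induction in Th2-4th cells, and for Grwd1, the ribosome biogenesis gene with the largest difference. They are printed 5′ to 3′ on the strand of the gene, and capitals mark letters that match any of the 7 motifs.
Mmp10 (chr9:7502092-7502341, plus strand): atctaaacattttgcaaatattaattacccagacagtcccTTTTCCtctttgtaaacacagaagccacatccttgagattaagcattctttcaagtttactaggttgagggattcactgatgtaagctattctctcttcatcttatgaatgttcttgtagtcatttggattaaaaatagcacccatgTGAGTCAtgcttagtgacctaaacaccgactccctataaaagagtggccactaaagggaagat
Havcr2 (chr11:46454681-46454930, plus strand): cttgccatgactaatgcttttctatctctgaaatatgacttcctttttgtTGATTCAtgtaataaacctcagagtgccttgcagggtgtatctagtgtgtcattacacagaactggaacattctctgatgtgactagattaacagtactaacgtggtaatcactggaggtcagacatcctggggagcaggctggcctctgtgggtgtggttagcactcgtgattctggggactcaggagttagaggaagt
Ccl1 (chr11:82179813-82180062, minus strand): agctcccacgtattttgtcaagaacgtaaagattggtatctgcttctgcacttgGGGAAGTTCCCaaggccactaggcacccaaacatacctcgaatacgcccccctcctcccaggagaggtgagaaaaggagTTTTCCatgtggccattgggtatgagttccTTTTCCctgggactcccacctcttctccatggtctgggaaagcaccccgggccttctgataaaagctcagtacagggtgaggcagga
Cxcl3 (chr5:90785851-90786100, plus strand): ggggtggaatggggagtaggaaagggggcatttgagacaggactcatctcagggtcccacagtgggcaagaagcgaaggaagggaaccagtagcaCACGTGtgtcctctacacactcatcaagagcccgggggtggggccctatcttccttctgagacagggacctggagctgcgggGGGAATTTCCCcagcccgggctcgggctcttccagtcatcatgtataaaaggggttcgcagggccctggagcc
Tnf (chr17:35202008-35202257, minus strand): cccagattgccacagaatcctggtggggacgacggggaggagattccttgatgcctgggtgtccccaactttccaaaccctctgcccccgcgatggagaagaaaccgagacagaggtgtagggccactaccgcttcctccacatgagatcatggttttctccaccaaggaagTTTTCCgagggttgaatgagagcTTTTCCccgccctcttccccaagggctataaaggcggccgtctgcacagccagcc
Grwd1 (chr7:45830790-45831039, minus strand): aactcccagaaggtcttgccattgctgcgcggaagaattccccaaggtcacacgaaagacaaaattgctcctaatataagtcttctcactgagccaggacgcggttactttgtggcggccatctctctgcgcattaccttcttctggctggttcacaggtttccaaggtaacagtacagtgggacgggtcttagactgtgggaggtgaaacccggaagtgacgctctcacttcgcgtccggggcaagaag
Mmp10 held an AP-1 and an NFAT match, Havcr2 an AP-1 match, Ccl1 matches to NFAT and NF-kappa B, Cxcl3 matches to NF-kappa B and the E-box, and Tnf NFAT matches only. In the window of Grwd1 none of the motifs was found. Of 24 promoters of 21 ribosome biogenesis genes, 1 (4.2%) held the E-box letters, against 6.0% of all and 8.4% of those of the genes measured. Letters of AP-1 were in 0 of the 24. A match is a description of letters and does not show binding.
Genes repressed only in Th2-4th cells were led by Ighm, the constant region of the immunoglobulin mu chain. Ighm read 5856 before and 5964 after anti-TCR in Th2-1st and 693 before and 76.8 after it in Th2-4th cells. It was high and level in Th2-1st cells, low in unstimulated Th2-4th and lowest in stimulated Th2-4th cells, while the B cell markers above were near or below the array median on each of these arrays. Its other 3 probe sets gave response differences of -2.21 to 1.36. Nr1d2, a nuclear receptor of the circadian clock, read 970.4 before and 1053 after anti-TCR in Th2-1st and 2788 before and 754 after it in Th2-4th cells, and was highest in unstimulated Th2-4th cells. Slc41a2, a magnesium transporter, read 83.7 before and 96.1 after anti-TCR in Th2-1st and 533 before and 156 after it in Th2-4th cells. Ust (a sulfotransferase), Bcdin3d (an RNA methyltransferase) and Coq8a (needed for coenzyme Q synthesis) had response differences of -2.48, -1.999 and -3.47, the last -1.97 with low signals raised.
Genes repressed in both cultures but more in Th2-4th included factors of quiescence. Foxo3, a transcription factor that restrains growth, read 1201 before and 536 after anti-TCR in Th2-1st and 4923 before and 439 after it in Th2-4th cells. Tsc22d3, the glucocorticoid-induced leucine zipper gene, read 829.6 before and 175 after anti-TCR in Th2-1st and 1884 before and 111 after it in Th2-4th cells. In both genes stimulated cells of the cultures were alike or nearly so, and unstimulated Th2-4th cells were the high ones. The other probe set of Foxo3 gave -0.73, and those of Tsc22d3 gave -1.93 and -0.33. Unstimulated Th2-4th cells were also highest for Ago4, a small RNA binding protein, which read 84.5 before and 36.0 after anti-TCR in Th2-1st and 1109.9 before and 96.8 after it in Th2-4th cells, and for Pank1 of coenzyme A synthesis, which read 75.7 before and 49.4 after anti-TCR in Th2-1st and 715 before and 76.8 after it in Th2-4th cells. Nxpe4 and Ahnak2 were also highest in unstimulated Th2-4th cells, at 886 and 695, and had response differences of -3.24 and -1.37.
Genes repressed only in Th2-1st cells were led by Klf2, a transcription factor of quiescent and recirculating T cells. Klf2 read 841 before and 50.2 after anti-TCR in Th2-1st and 109 before and 139 after it in Th2-4th cells. It was high only in unstimulated Th2-1st cells, where stimulation lowered it 16.8-fold, and in Th2-4th cells it was low in both states. Ccr7, the lymph node homing receptor, read 1242 before and 324 after anti-TCR in Th2-1st and 78.4 before and 68.8 after it in Th2-4th cells. In Ccr7 too Th2-4th cells were low before stimulation, and with GATA3 siRNA stimulated cells read 621 in Th2-1st and 23.1 in Th2-4th. Als2cl and Treml2 had the same order, with 647 and 1637 in unstimulated Th2-1st cells, although the response difference of Als2cl was 1.96 by this and 0.24 by its other probe set. Of the 16 genes of naive and quiescent T cells, 2 (Klf2 and Ccr7) were past 2-fold toward Th2-4th and 3 (Foxo3, Tsc22d3 and Pik3ip1) toward Th2-1st cells, with a median of 0.29.
In Zbtb38 and Atp2b4, by contrast, the unstimulated cultures were alike. Zbtb38, a zinc finger protein that binds methylated DNA, read 1089.5 before and 230.3 after anti-TCR in Th2-1st and 819 before and 749 after it in Th2-4th cells. Atp2b4, a calcium pump of the plasma membrane, read 504 before and 116 after anti-TCR in Th2-1st and 466 before and 399.9 after it in Th2-4th cells. Stimulated Th2-1st cells were the low ones, and they were so with GATA3 siRNA too, at 222 against 594 for Zbtb38 and 129 against 335 for Atp2b4. The other probe set of Zbtb38 gave a response difference of 0.845 against 2.11. Haghl had a response difference of 2.01, and -0.54 to 0.80 by its other probe sets.
Among genes repressed more in Th2-1st cells, Fgl2, a secreted inhibitory protein of activated T cells, read 2271 before and 262 after anti-TCR in Th2-1st and 11628 before and 5025 after it in Th2-4th cells. It was higher in Th2-4th cells before and after stimulation. Slc43a2, an amino acid transporter, read 706 before and 60.7 after anti-TCR in Th2-1st and 2229.5 before and 1104 after it in Th2-4th cells, and Tlr1, a Toll-like receptor, read 1729.7 before and 124 after anti-TCR in Th2-1st and 1742 before and 427 after it in Th2-4th cells. In these, stimulated Th2-1st cells were the lowest of the control arrays. With GATA3 siRNA, Slc43a2 read 31.5 in Th2-1st against 582 in Th2-4th cells, but Tlr1 was nearly level at 193 against 217. Mpv17l2 was at 1.75, and with GATA3 siRNA it too was nearly level, at 294 in Th2-1st against 309 in Th2-4th cells. Dnm2 was at 2.39, but its other 5 probe sets ran from -0.996 to 1.32. Its stimulated log2 ratio was 3.02 on the control arrays and 0.98 with GATA3 siRNA.
Responses past 2-fold in opposite directions were seen for 14 genes that were induced in Th2-4th and repressed in Th2-1st cells and for 8 with the reverse, and 11 and 2 of these were still past a 2-fold difference when low signals were raised. With raised signals, only 1 and 0 genes remained past 2-fold in opposite directions. In 13 of the 14, unstimulated Th2-4th cells were below the array median, and in 7 of the 8 unstimulated Th2-1st cells were.
Gene lists by role are read against the 7.17% and 6.52% of all genes past 2-fold in each direction. The TCR complex and its proximal signalling had 0 of 27 genes past 2-fold in either direction and a median of 0.01, and reference genes had 0 of 10 with a median of -0.15. Granzymes and granule genes had 0 of 11 and a median of -0.17, although they read higher in Th2-4th cells before (median log2 ratio 1.97) and after stimulation (1.35).
More immediate early factors had the higher response in Th2-4th than in Th2-1st cells. Of 17 AP-1 and related leucine zipper genes, 5 were past 2-fold toward Th2-4th and 2 toward Th2-1st, with a median of 0.64. Fos read 120.3 before and 1422 after anti-TCR in Th2-1st and 66.0 before and 2975 after it in Th2-4th cells. Batf3 read 1544 before and 1045 after anti-TCR in Th2-1st and 95.4 before and 326 after it in Th2-4th cells, and was lowest in unstimulated Th2-4th cells. Jun, the partner of Fos, went the other way and read 204 before and 1032 after anti-TCR in Th2-1st and 803 before and 1290.0 after it in Th2-4th cells, with 3.94 times more in unstimulated Th2-4th cells. The response difference of Jun was -1.66, and -0.73 by its other probe set. Nfil3, a leucine zipper repressor, was at 1.54 because it was repressed past 2-fold in Th2-1st cells only. It read 3313 before and 1285 after anti-TCR in Th2-1st and 3027 before and 3417 after it in Th2-4th cells.
Of 16 EGR, NR4A and IER genes, 5 were past 2-fold toward Th2-4th and 1 toward Th2-1st, with a median of 0.53. Egr2 read 83.1 before and 10922 after anti-TCR in Th2-1st and 101 before and 26871 after it in Th2-4th cells, and Nr4a1 read 99.5 before and 6860.0 after anti-TCR in Th2-1st and 111 before and 14331 after it in Th2-4th cells. In both, unstimulated cells were near the array median in each culture and stimulated Th2-4th cells had the highest control signal. Nab2, a corepressor of EGR factors, was at 2.16 and Irf4, needed for effector differentiation, at 1.32, or 0.76 by its other probe set. Nr4a3 was at -2.07 as deposited, but at 1.02 with low signals raised, as it read 6.63 in unstimulated Th2-1st cells.
NFAT, NF-kappa B and fate regulators were mixed. Of 16 genes of NFAT and calcium feedback, 2 were past 2-fold toward Th2-4th (Orai1, the calcium channel subunit, at 1.28 and Nfatc1 at 1.27) and 1 toward Th2-1st. Both depend on the probe set, as the other probe set of Orai1 gave 0.92 and the other 4 of Nfatc1 ran from -0.16 to 3.50. Of 14 NF-kappa B genes, 2 were toward Th2-4th (Nfkbid at 1.89 and Bcl3 at 1.02, both nuclear members of the I-kappa-B family) and 1, the survival gene Birc3 at -1.23, toward Th2-1st. Nfkbia, the inhibitor induced by NF-kappa B itself, was at -0.26. Of 20 fate regulators, 3 were toward Th2-4th, among them Tbx21 (T-bet) at 1.39 and Zbtb32, a repressor of cytokine genes, at 2.48 (0.72 with low signals raised), and 2 toward Th2-1st. Gata3 read 3312 before and 4883 after anti-TCR in Th2-1st and 4846 before and 9261 after it in Th2-4th cells, and its response difference was 0.37 where the spread was 0.42.
Th2 cytokines were strongly induced in both cultures. Il4 read 504 before and 34734 after anti-TCR in Th2-1st and 729 before and 45979.6 after it in Th2-4th cells, with a response difference of -0.13. Il13 read 16.9 before and 15757 after anti-TCR in Th2-1st and 29.7 before and 35292 after it in Th2-4th cells, and had a response difference of 0.35 (0.92 with low signals raised). Il5 read 163 before and 26465 after anti-TCR in Th2-1st and 696 before and 44722 after it in Th2-4th cells, and had a response difference of -1.34, with 4.27 times more in unstimulated Th2-4th cells. Stimulated Th2-4th cells were the highest control array for all of these cytokines.
Of 12 Th2 and haematopoietic cytokine genes, 2 were past 2-fold toward Th2-4th and 5 toward Th2-1st cells, with a median of -0.37 that turned to 0.12 when low signals were raised. Unstimulated signals were below the array median in both cultures for 5 of the 12. Il3 was at -2.99 and Il9 at -2.46, and these became 0.08 and 1.07 with raised signals. Il31 was at 1.84 and 0.16 with raised signals. Of 14 other cytokine genes, 2 were toward Th2-4th (Tnf, and Clcf1 at 1.04, with 0.79 and 0.86 by its other probe sets) and 1, Il2 at -1.02, toward Th2-1st. Il2 became 0.13 with raised signals, and Ifng was at -0.41 and became 0.93.
Chemokines had 0 of 12 genes past 2-fold toward Th2-4th and 6 toward Th2-1st cells. The median of -0.92 turned to 0.42 with raised signals, and 9 of the 12 read below the array median in unstimulated Th2-1st cells. Ccl4 read 50.2 before and 27604 after anti-TCR in Th2-1st and 218 before and 36872 after it in Th2-4th cells, and was higher in Th2-4th cells in both states. Ccl3 was at -1.78, but 0.26 with raised signals. The brightest probe set of the control arrays read 36674 to 58757, and Ccl1, Ccl3, Il3 and Il4 read 51302, 50161, 55479 and 45979.6 in stimulated Th2-4th cells. Whether such signals are near a limit of the array was not tested.
Of 18 costimulatory and inhibitory receptors, 3 were past 2-fold toward Th2-4th and 7 toward Th2-1st cells, with a median of -0.81 (-0.58 with raised signals). Cd69, an early activation marker, read 692 before and 2016 after anti-TCR in Th2-1st and 827 before and 6719 after it in Th2-4th cells, and Icos, a costimulatory receptor, read 10121 before and 4919.6 after anti-TCR in Th2-1st and 5764 before and 7455 after it in Th2-4th cells. Cd69 was induced more in Th2-4th cells, while Icos was repressed past 2-fold only in Th2-1st cells. Pdcd1 (PD-1) read 162 before and 2209.7 after anti-TCR in Th2-1st and 555 before and 3692 after it in Th2-4th cells, and Cd274 (PD-L1) read 239 before and 2636 after anti-TCR in Th2-1st and 917 before and 3988 after it in Th2-4th cells, and in both Th2-4th cells were higher before stimulation. Lag3 at 1.60 and Cd244a at -1.51 changed sign with raised signals, to -0.82 and 1.36.
Of 10 TNF family ligands, 2 were toward Th2-4th and 1, Fasl, toward Th2-1st cells, with a median of 0.77. Tnfsf11 (RANKL) read 803 before and 15455 after anti-TCR in Th2-1st and 354 before and 31282 after it in Th2-4th cells, and was lower before and higher after stimulation in Th2-4th cells. Of 10 TNF receptor genes, 2 (Fas at 1.23 and Tnfrsf8 at 1.03) were toward Th2-4th cells and 0 toward Th2-1st. Tnfrsf8, with a spread of 1.60 at its signal, was at 0.67 with raised signals and so no longer past 2-fold. Of 16 chemokine and lipid mediator receptors, 4 were toward Th2-4th, among them the oxysterol receptor gene Gpr183 at 2.83, and 1, Ccr10, toward Th2-1st at -1.70, which turned to 0.27 with raised signals. Gpr183 fell to 1.87 with raised signals and was at 0.30 by its other probe set, and with GATA3 siRNA it read 164 in stimulated Th2-1st against 46.7 in stimulated Th2-4th cells, the reverse order of the control arrays.
Metabolic, stress and survival lists had between 0 and 5 genes past 2-fold in a direction. Cholesterol synthesis had 0 of 20 toward Th2-4th and 2 toward Th2-1st, which were Dhcr7 at -1.67 and Mvk at -1.04, the latter 0.42 with raised signals and -0.34 by its other probe set. The unfolded protein response had 0 and 3 of 17, with Ddit3 (CHOP) at -1.46 and the sensor kinase gene Ern1 at -1.04 beside Herpud1, but the other 2 probe sets of Ern1 gave 0.18 and 0.30, in the other direction. Glycolysis and hypoxia had 4 and 1 of 22, with Hk2 (hexokinase) at 1.21 and Pfkfb3 at 1.497. Vegfa, at 1.32, turned to -0.18 with raised signals.
Histones and heat shock genes had 3 and 0 of 12, all 3 chaperone genes, with Hspa1b, which cannot be told apart with certainty from its near copy Hspa1a, reading 383 before and 639.7 after anti-TCR in Th2-1st and 183 before and 1678 after it in Th2-4th cells. The interferon response had 2 and 5 of 21, with Iigp1, an immunity GTPase, at -2.16 and the peptide transporter Tap1 at -1.56. The BCL2 family had 1 and 2 of 14, and cytokine mRNA decay 1 and 0 of 13, with Zc3h12c at 1.24 but -1.78 by its other probe set. Except where stated, medians of the lists in these paragraphs lay between -0.32 and 0.31.

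**Figure D5:**
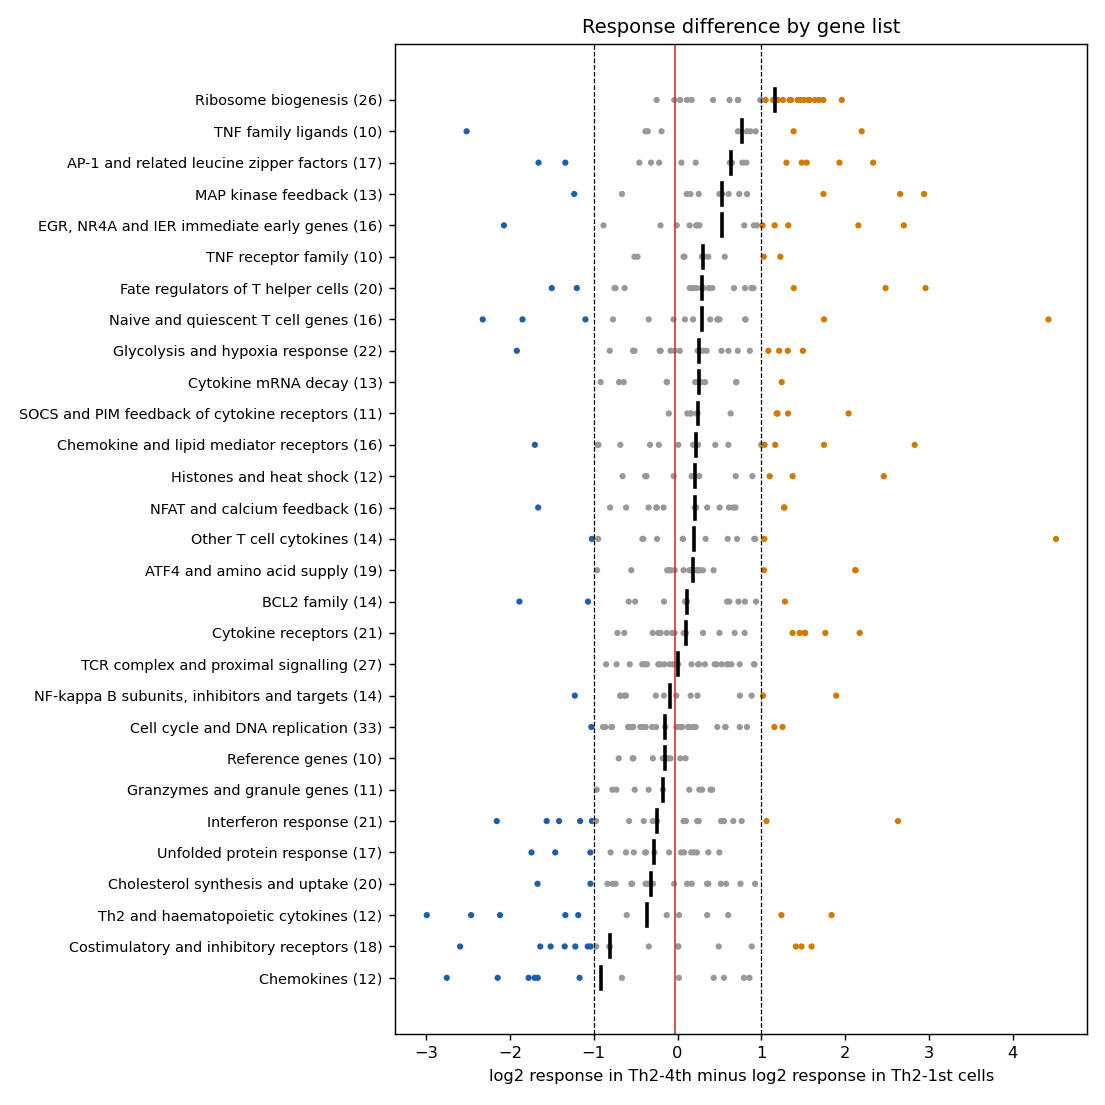
Response difference (horizontal axis, log2 response in Th2-4th minus Th2-1st cells) of each gene in 29 lists, with the number of genes in brackets. Points past the dashed 2-fold lines are orange (higher response in Th2-4th) or blue (higher in Th2-1st), black bars are list medians and the red line is the median of all genes at -0.03. Ribosome biogenesis has the highest median, at 1.17, and chemokines the lowest, at -0.92, before low signals are raised.

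A further 1350 genes were above the array median in the pair of a single culture and so were outside the description above. With low signals raised to the median, 62 of them had a response difference past 2-fold toward Th2-4th and 53 toward Th2-1st cells. The growth factor genes Bmp2 and Hgf were above the array median in Th2-4th cells alone. Bmp2 read 13.2 before and 28.5 after anti-TCR in Th2-1st and 239.8 before and 3719 after it in Th2-4th cells, and Hgf read 13.7 before and 51.1 after anti-TCR in Th2-1st and 125 before and 2178 after it in Th2-4th cells. With GATA3 siRNA, stimulated Th2-4th cells read 1501 and 1096. The integrin gene Itga4, needed for homing to inflamed tissue, read 817 before and 141 after anti-TCR in Th2-1st and 63.3 before and 10.3 after it in Th2-4th cells, and was above the array median only in Th2-1st cells. Its response difference was -0.09 as deposited, with a like fall in both cultures, and 2.51 only with low signals raised. Itga1, the collagen-binding integrin chain, read 57.0 before and 24.9 after anti-TCR in Th2-1st and 611 before and 130.2 after it in Th2-4th cells, and was highest in unstimulated Th2-4th cells.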

How the data were processed

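RNA of 6 bulk samples was hybridised to Affymetrix whole-genome mouse arrays, 1 array per condition. The values the authors deposited are linear signal intensities from the program Expression Console (Affymetrix). Its version and its way of summarising probes are not given in sources used here. The mean signal without the 2% highest and lowest probe sets was 500.0 on each array, so a change in total RNA per cell would not be seen. Of 45101 probe sets, 34958 named a single gene, 932 several and 9211 none in the platform annotation. Symbols were updated through RefSeq (34754 matched). For genes with several probe sets, the brightest by mean log2 signal over 6 arrays was kept, and genes were filtered on the array median.
Responses were differences of log2 signals. The precision is limited by the number of arrays, and no test across samples was possible. Named genes were the 6 with the largest response difference (low signals raised, past 2-fold both ways, no provisional symbols) in each class responding in a single culture, 5 in each class responding more and 4 in each opposite class, up to 4 past 2-fold per list, and Gata3, Il4, Il5, Il13, Il2, Ifng, Tnf, Nr4a1, Egr2, Fos, Myc and Nfkbia. Other genes named, such as Polr1a, Npm1, Cd69, Bmp2, Hgf, Itga4 and Itga1, were chosen after their values were seen. The members and the 35 gene lists were chosen with earlier results of these data known. Markers of erythroid cells had 1 measured gene, at 1.97 to 11.2. Alternatives were the mean over probe sets, leaving out probe sets that may cross-hybridise, centring, quantile normalization, raised low signals, other filters and a 4-fold threshold. The calculation was checked on simulated data. Python 3.11.15 with numpy 2.4.6, pandas 2.3.3, scipy 1.17.1 and matplotlib 3.10.9 was used.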

Additional observations from a re-analysis of the deposited data

Results flagged for a closer look

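The genes given here rose past 2-fold in a single culture and fell past 2-fold in the other. Each culture gave a single pair of arrays, so there is no replicate behind either direction, and none of these differences was tested. Tmcc3 read 213 before and 71.1 after anti-TCR in Th2-1st and 47.8 before and 145 after it in Th2-4th cells and had a response difference of 3.18. For Pmf1, signals were 407 before and 117 after anti-TCR in Th2-1st and 39.0 before and 116 after it in Th2-4th cells and the difference was 3.37. Arhgef40 and Tbxa2r had differences of 3.57 and 3.90, with 50.2 and 35.9 in unstimulated Th2-4th cells. Usp18, an interferon-induced protease, read 272 before and 114 after anti-TCR in Th2-1st and 45.7 before and 118 after it in Th2-4th cells, a difference of 2.63. In the other direction, Sln and Macroh2a3 had differences of -3.31 and -3.28, with 201 and 31.8 in unstimulated Th2-1st cells. At least 1 of the 4 signals lay below the array median in each of these genes. Over all 14 genes up in Th2-4th and down in Th2-1st, the median stimulated log2 ratio was 2.09, but -0.03 with GATA3 siRNA. For the 8 genes of the reverse order these medians were -2.43 and 0.27.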

How the results depend on the processing

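Centring each array on its median and quantile normalization kept the counts and list medians close to those reported (counts within 1.5 times). So did leaving out probe sets that may cross-hybridise. Over all settings the median response difference of all genes lay between -0.06 and -0.02. The share of genes past 2-fold with the higher response in Th2-4th cells was 52.4% as reported and 46.6% to 55.9% over the settings. Of 130 named genes past 2-fold, 114 were still past it with low signals raised and 96 of 112 with the mean over probe sets. No paired analysis was possible because each condition had 1 array. Where a value changed, the cause was not tested. Signals near or below the array median limit these results, as a change in them is not distinct from background.
At a 4-fold threshold, 129 genes had the higher response in Th2-4th and 111 in Th2-1st cells. The classes then held 18 genes induced only in Th2-4th, 9 only in Th2-1st, 15 repressed only in Th2-4th, 14 only in Th2-1st, 44 induced more in Th2-4th, 24 more in Th2-1st, 30 repressed more in Th2-4th, 14 more in Th2-1st, 2 opposite in each way, and 37 and 31 between classes. Of the 129, 40 were set apart only before and 40 only after stimulation, 7 of the stimulated differences being past the threshold with GATA3 siRNA too. Of the 111, these were 42, 28 and 5.
With all 4 signals above the median, 446 genes had the higher response in Th2-4th and 352 in Th2-1st cells. The classes held 80 and 25 genes induced only in Th2-4th and Th2-1st, 107 and 69 repressed only, 31 induced more in Th2-1st, 115 and 35 repressed more, 0 opposite, and 95 and 74 between classes. Of the 446, 162 were set apart only before and 137 only after stimulation, with 64 also past 2-fold with GATA3 siRNA, and of the 352 these were 168, 67 and 36. The medians of chemokines and of costimulatory and inhibitory receptors were 0.79 and -0.17.
With low signals raised, 36 genes were induced only in Th2-1st, 57 induced more and 50 repressed more in Th2-1st, 1 was opposite (up in Th2-4th) and 0 the reverse, and 99 with the higher response in Th2-1st were set apart only after stimulation. The medians of chemokines and Th2 cytokines were 0.42 and 0.12. Where at least 1 pair had to be above the median, these were 57, 50, 1, 0 and 116, with medians of 0.69 for chemokines, 0.12 for Th2 cytokines, -0.21 for costimulatory and inhibitory receptors and 1.28 for mast cell and basophil markers. In both settings Ccl3 (0.26), Ccr10 (0.27), Cd244a (1.36), Il2 (0.13), Il3 (0.080), Il9 (1.07), Lag3 (-0.82), Mvk (0.42), Nr4a3 (1.02) and Vegfa (-0.18) changed sign.
With the mean over probe sets, 9 genes were opposite (up in Th2-4th). The medians were -1.67 for chemokines, -1.03 for myeloid markers and 0.71 for SOCS and PIM genes. Cd244a (0.15), Dnm2 (-0.21), Nr4a3 (1.05) and Zc3h12c (-0.27) changed sign.
With no filter on low signals, 2789 genes had the higher response in Th2-4th and 3195 in Th2-1st cells. The classes held 640 and 557 genes induced only in Th2-4th and Th2-1st, 613 and 429 repressed only, 581 and 402 induced more, 397 and 224 repressed more, 318 up in Th2-4th and down in Th2-1st, 491 the reverse, and 597 and 735 between classes. Of the 2789, 880 were set apart only before and 1202 only after stimulation, with 449 also past 2-fold with GATA3 siRNA, and of the 3195 these were 1413, 899 and 454. The chemokine median was 0.22.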
